A study of Homo sapiens with 12 samples.

Results

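The genes described here are 10 genes of endoplasmic reticulum (ER) quality control: DERL1, DERL2, SELENOS, SEL1L, SYVN1 and HERPUD1 of ER-associated degradation, the chaperones HSPA5 and HSP90B1 with the co-chaperone DNAJB9, and the transcription factor XBP1. They were found in the count table by matching its Ensembl identifiers to GENCODE symbols. All 10 were among the 25141 genes of the table, and all 10 were among the 12542 genes that passed the filter on low counts. RNA-seq of HOS, a human osteosarcoma cell line, covered 4 groups of 3 libraries. The upCIN85 group was a geneticin-resistant pool carrying the plasmid pRc/CMV2-Rukl, which encodes full-length CIN85, and the Mock group carried the empty vector. CIN85, the product of SH3KBP1, is an adaptor protein of receptor endocytosis. In the siCIN85 group CIN85 was silenced transiently with 3 pooled siRNAs, and siNeg cells were given a non-targeting siRNA. Both plasmid groups were thus selected pools rather than single clones, and the comparison of siNeg with Mock sets transient siRNA against a drug-selected vector pool. The study's methods call their replicates biological in general terms, but the labels do not say which separate cultures the libraries came from, so P-values measure the spread between these libraries, which may be technical.

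Secreted and membrane proteins fold in the ER with the help of HSPA5 (BiP, an HSP70 chaperone) and HSP90B1 (GRP94, an HSP90 chaperone), while DNAJB9 is a J-domain partner of HSPA5. Proteins that fail to fold are passed to the ubiquitin ligase SYVN1 (HRD1) and its partner SEL1L. They are drawn out of the ER by the ATPase VCP and degraded by the proteasome, in membrane complexes that also hold DERL1, DERL2, SELENOS and HERPUD1. When unfolded proteins accumulate, the sensors IRE1, ATF6 and PERK start the unfolded protein response (UPR), in which spliced XBP1 and cleaved ATF6 raise the transcription of many of these genes. Secretory cells such as collagen-producing osteoblasts depend on this system.

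Promoter sequences are shown for the 3 genes that hold a letter match to an ER stress response element, since such elements are a known route by which ATF6 and XBP1 act on chaperone genes. RefSeq promoter windows, from 250 bases before to 50 bases after the transcription start, were matched for 9 of the 10 genes, and DERL1 was not matched. For DERL2, HSP90B1, XBP1 and DNAJB9 the window lay wholly inside the gene as GENCODE bounds it. Their RefSeq starts thus differ from the GENCODE gene starts, whose upstream sequence was not searched. The motifs searched on both strands were ERSE (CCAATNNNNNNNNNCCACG), ERSE-II (ATTGGNCCACG) and UPRE (TGACGTGG), and no match of one overlapped a match of another. ERSE was found in HSPA5 and HSP90B1 and in 0.0769% of 35116 RefSeq promoters of this length. ERSE-II was found in HERPUD1 and in 0.0541% of all promoters. UPRE was found in 0 of the 9 genes and in 0.729% of all promoters. A match is a description of the letters, and the lack of one says only that these letters are not in the window. In the runs that follow, on GRCh38.p14 and read 5′ to 3′ along the gene, capitals mark the matches. The HSPA5 window lies on the minus strand at chr9:125241294-125241593, with ERSE from -66 to -48 relative to the start. The HSP90B1 window lies on the plus strand at chr12:103930160-103930459, with ERSE from -194 to -176 and, on the opposite strand, from -89 to -71. The HERPUD1 window lies on the plus strand at chr16:56931892-56932191, with ERSE-II from -117 to -107.
HSPA5: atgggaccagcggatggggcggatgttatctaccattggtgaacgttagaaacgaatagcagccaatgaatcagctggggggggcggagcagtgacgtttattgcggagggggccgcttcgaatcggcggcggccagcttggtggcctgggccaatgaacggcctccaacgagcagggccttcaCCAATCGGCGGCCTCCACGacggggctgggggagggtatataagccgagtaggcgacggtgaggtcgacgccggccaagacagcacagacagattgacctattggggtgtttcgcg
HSP90B1: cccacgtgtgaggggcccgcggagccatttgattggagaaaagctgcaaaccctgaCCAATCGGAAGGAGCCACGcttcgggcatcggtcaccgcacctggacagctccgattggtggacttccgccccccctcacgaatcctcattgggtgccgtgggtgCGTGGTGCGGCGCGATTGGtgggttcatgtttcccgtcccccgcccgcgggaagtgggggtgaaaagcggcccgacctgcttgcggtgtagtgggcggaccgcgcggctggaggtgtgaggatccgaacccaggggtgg
HERPUD1: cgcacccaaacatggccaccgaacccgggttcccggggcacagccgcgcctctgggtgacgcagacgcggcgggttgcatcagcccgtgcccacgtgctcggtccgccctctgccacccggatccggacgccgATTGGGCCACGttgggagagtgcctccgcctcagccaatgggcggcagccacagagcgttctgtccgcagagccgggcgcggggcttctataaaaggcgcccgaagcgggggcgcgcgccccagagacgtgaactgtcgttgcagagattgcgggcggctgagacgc

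Total counts per library ranged from 3540641 to 6049458, with every siRNA library below every plasmid library, and mitochondrial genes held 3.52% to 7.53% of the counts. Levels are given as CPM, counts scaled to the library total with TMM factors. SH3KBP1 fell in siCIN85 to 7.54 ± 3.19 CPM (mean ± SD, n = 3) from 85.1 ± 2.37 CPM in siNeg, a log2 fold change of -3.51 (SE 0.21, edgeR adjusted P = 5.09e-08). Its level was 77.5 ± 5.0 CPM for Mock and 81.3 ± 9.61 CPM for the libraries labelled upCIN85. The latter overlapped those of Mock (log2 fold change 0.07, SE 0.16, edgeR adjusted P = 0.887), and a transcript of the plasmid cannot be told apart from the cell's own in these counts. Whether 3′ end reads of the plasmid transcript were counted under SH3KBP1 at all was not tested, so this level does not check the label. Per the study's methods, CIN85 protein in the resistant pool was examined by western blot, which was not analysed here. Directions for upCIN85 follow the label. Of the osteoblast lineage markers, COL1A1 measured 337 to 1243 CPM, SPARC 354 to 779, COL1A2 18.8 to 212 and RUNX2 7.23 to 38.8, while ALPL reached at most 3.76. Markers of blood and endothelium were near 0 (PTPRC and CD3E at most 1 count, PECAM1 at most 6), and the epithelial marker EPCAM measured 24.6 to 61.2 CPM. Replicate 1 of siNeg and of siCIN85 stood apart by interferon-stimulated genes: the summed level of 10 such genes, a list added after seeing the data, was 1097 CPM in the former and 509 CPM in the latter, against 55.2 to 116 CPM in the other 10 libraries.

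The order of the 10 genes by level was much alike in the 4 groups, with the chaperones HSPA5 and HSP90B1 at the top and SYVN1 and DNAJB9 at the bottom. The 3′ end kit reads about 1 fragment per transcript, so CPM was compared between genes without division by length. HSPA5 was highest, at 1285 ± 214 CPM in Mock and 1213 ± 96.1 CPM in upCIN85 (SD, n = 3). With siRNA it measured 1606 ± 201 CPM for the siNeg group and 1419 ± 135 CPM for the siCIN85 group. HSP90B1 came next, with group means from 534 CPM in siCIN85 to 637 in siNeg. SEL1L followed with group means from 161 to 202 CPM, and within each group its libraries overlapped neither HSP90B1 nor the next gene by mean. In upCIN85 the highest HERPUD1 library, at 161 CPM, lay within the SEL1L range of 146 to 176 CPM. SELENOS, DERL2, XBP1 and HERPUD1 held the middle of the order, with group means from 85.9 to 153 CPM. DERL2 and XBP1 overlapped in Mock, siNeg and siCIN85, and in upCIN85 these 4 genes each overlapped the next and could not be ordered. DERL1 came below them at group means of 63.7 to 71.7 CPM, and 33.8 CPM in siCIN85, overlapping HERPUD1 in Mock. The ligase SYVN1 and the co-chaperone DNAJB9 were lowest, at group means of 17.6 to 21.9 CPM and at most 21.2 CPM, and overlapped each other in every group but upCIN85.

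**Figure D1:**
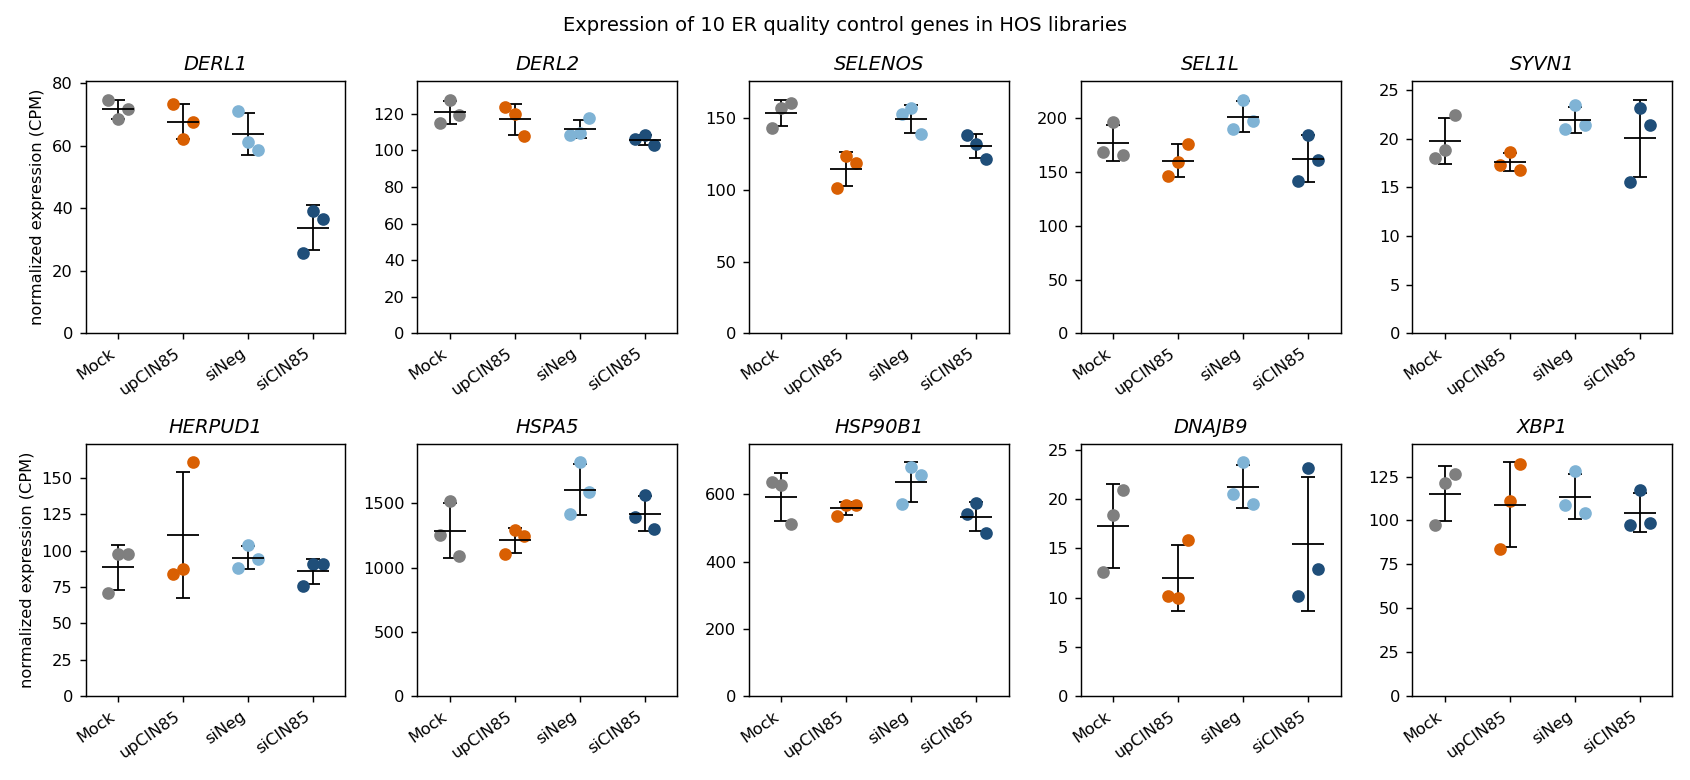
Normalized expression (CPM, linear axes from 0) of the 10 genes in each library of the 4 groups; points are libraries in replicate order, long bars the mean and whiskers the SD (n = 3). DERL1 in siCIN85 lies between 25.7 and 39.0 CPM, below the libraries of the other groups, and HERPUD1 has 1 high library in upCIN85, at 161 CPM.

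The siCIN85 libraries were compared with siNeg to ask which of these genes moved when CIN85 was silenced. DERL1 fell to 0.529 of its control level, and it was the 1 gene of 10 called by edgeR's quasi-likelihood test at an adjusted P below 0.05, a threshold that 1.04% of the 12542 genes passed. All 10 log2 fold changes were below 0, with a median of -0.19 beside -0.01 over all genes tested. At an unadjusted P below 0.05 there were 3 members (DERL1, SEL1L and HSP90B1), beside 15.7% of all genes. For 3 members (DERL1, SELENOS and SEL1L) the siCIN85 libraries all lay under the lowest siNeg library, beside 10.2% of all genes. DESeq2 called 1 member, DERL1, and 2.71% of its genes. Blocking on replicate number in the siRNA experiment, edgeR called 1 member, DERL1, and 3.42% of genes. In bulk RNA a fall in every cell and a larger fall in some of the cells cannot be told apart.

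DERL1 (ENSG00000136986, minus strand of chromosome 8 from 123013164 to 123042423 on GRCh38) encodes derlin-1, a multi-pass ER membrane protein. It measured 71.2, 61.3 and 58.6 CPM in siNeg replicates 1 to 3 and 25.7, 39.0 and 36.7 CPM in siCIN85, from 225 to 285 counts and 106 to 139 counts. The groups did not overlap. The log2 fold change was -0.92 (SE 0.15, 95% confidence interval -1.23 to -0.60, edgeR adjusted P = 0.0111). It stayed below 0 in all 14 alternatives, from -1.04 to -0.67, and was called in 11 of them. The call was lost without siNeg replicate 1 (-0.84, edgeR adjusted P = 0.0542), without siCIN85 replicate 1 (-0.75, edgeR adjusted P = 0.0657) and without both (-0.67, edgeR adjusted P = 0.260). In this order the fits called 0.13%, 0.0691% and 0.0462% of all genes, beside 1.04% in the main fit. The libraries left out are those with high interferon-stimulated genes, whose part in the result was not tested. TBC1D31 overlaps DERL1 on the opposite strand with 82 to 142 counts, and whether the counting used strand is not given in the sources used here.

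DERL2 (ENSG00000072849, minus strand of chromosome 17 from 5471251 to 5486811 on GRCh38) encodes derlin-2, a close relative of derlin-1. It measured 108, 110 and 117 CPM in siNeg and 106, 108 and 103 CPM in siCIN85, and the groups overlapped. The log2 fold change was -0.08 (SE 0.10, 95% confidence interval -0.28 to 0.13, edgeR adjusted P = 0.743), an interval that lies wholly above that of DERL1. The remaining derlin, DERL3, was scarcely expressed, with group means of 1.40 to 2.27 CPM. MIS12 overlaps DERL2 on the opposite strand with 374 to 797 counts.

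Within each library DERL1 counts were also set against DERL2 counts, a ratio that does not depend on library size. There were 0.658, 0.559 and 0.499 DERL1 counts per DERL2 count in siNeg and 0.242, 0.360 and 0.356 in siCIN85. All 3 siCIN85 libraries were below the 9 others, and the group means were 0.572 ± 0.0804 in siNeg and 0.319 ± 0.0671 in siCIN85 (SD, n = 3). The difference in log2 ratio was -0.85 (two-sided exact permutation P = 0.1, which is the lowest value possible with 3 libraries per group). Without replicate 1 of both groups it was -0.56 (exact permutation P = 0.333, also the lowest possible for the libraries left). These permutations did not pair libraries by number. If the numbers were pairs, the lowest exact P possible with 3 pairs would be 0.25. In Mock the ratios were 0.649, 0.537 and 0.601 and in upCIN85 0.593, 0.520 and 0.629. These groups overlapped, with a log2 difference of -0.04 (exact permutation P = 0.7), as did siNeg and Mock, with a log2 difference of -0.06 (exact permutation P = 0.8).

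**Figure D2:**
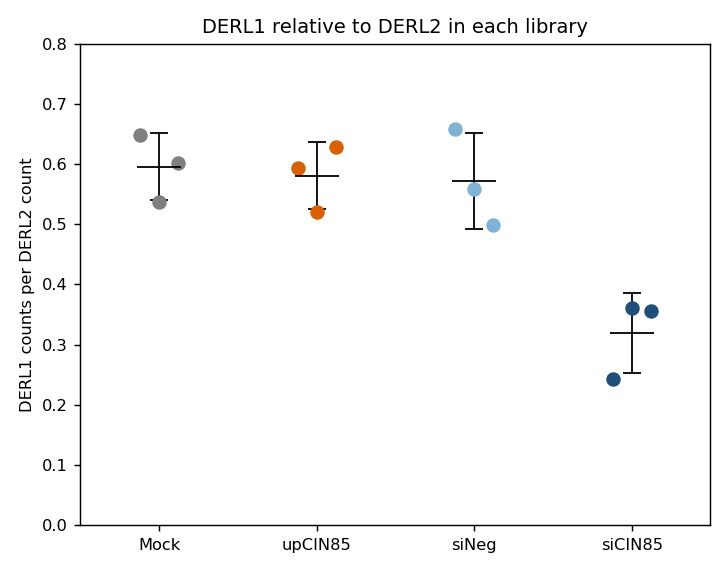
DERL1 counts per DERL2 count in each library (linear axis from 0); points are libraries, long bars the mean and whiskers the SD (n = 3). Mock, upCIN85 and siNeg lie between 0.499 and 0.658, and siCIN85 between 0.242 and 0.360.

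Of the other degradation genes 0 passed the test in siCIN85. SEL1L (ENSG00000071537, minus strand of chromosome 14 from 81471549 to 81533861 on GRCh38), which holds SYVN1 and its substrates together, measured 190, 217 and 198 CPM in siNeg and 142, 185 and 161 CPM in siCIN85. The libraries did not overlap, with a log2 fold change of -0.31 (SE 0.12, edgeR adjusted P = 0.199; 0.0426 with replicate blocks in both experiments). SELENOS, the VCP-binding selenoprotein, measured 152, 157 and 139 CPM in siNeg and 138, 132 and 121 CPM in siCIN85. Its siCIN85 libraries were also all lower, by 138 against 139 CPM at the nearest, with a log2 fold change of -0.19 (SE 0.11, edgeR adjusted P = 0.382). SYVN1 (ENSG00000162298, minus strand of chromosome 11 from 65121780 to 65134533 on GRCh38) had a log2 fold change of -0.14 (SE 0.17, edgeR adjusted P = 0.737). Its groups overlapped, and it shares ground on the same strand with the abundant gene FAU (4126 to 6238 counts), so its reads are uncertain. HERPUD1 (ENSG00000051108, plus strand of chromosome 16 from 56932048 to 56944863 on GRCh38), a partner of the SYVN1 complex whose ERSE-II is shown above, had a log2 fold change of -0.15 (SE 0.20, edgeR adjusted P = 0.760).

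The chaperone genes and XBP1 also did not pass the test in siCIN85. HSP90B1 (ENSG00000166598, plus strand of chromosome 12 from 103930107 to 103953645 on GRCh38) measured 571, 682 and 657 CPM in siNeg and 543, 573 and 486 CPM in siCIN85. The groups overlapped by a single pair of libraries, with a log2 fold change of -0.25 (SE 0.11, edgeR adjusted P = 0.256). HSPA5 (ENSG00000044574, minus strand of chromosome 9 from 125234853 to 125241330 on GRCh38) had a log2 fold change of -0.18 (SE 0.13, 95% confidence interval -0.44 to 0.09, edgeR adjusted P = 0.512). DNAJB9 (ENSG00000128590, plus strand of chromosome 7 from 108569568 to 108574850 on GRCh38) measured 20.5, 23.7 and 19.5 CPM in siNeg and 10.2, 23.1 and 12.9 CPM in siCIN85. Replicate 2 of siCIN85 was at the siNeg level, and the log2 fold change was -0.48 (SE 0.27, edgeR adjusted P = 0.407), or -0.89 without that library (edgeR adjusted P = 0.0846). PNPLA8 (88 to 198 counts) and THAP5 (139 to 262 counts) overlap DNAJB9 on the opposite strand. XBP1 (ENSG00000100219, minus strand of chromosome 22 from 28794555 to 28800597 on GRCh38) had a log2 fold change of -0.12 (SE 0.15, edgeR adjusted P = 0.737), and counts per gene do not separate its spliced form from its unspliced form.

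The libraries labelled upCIN85 were compared with Mock to ask whether these genes moved in the plasmid pool. With edgeR 0 of the 10 were called (1.23% of all genes), 1 had an unadjusted P below 0.05 (14.5% of all genes), and DESeq2 called 1 (2.5% of its genes). That gene was SELENOS in both cases. Of the log2 fold changes 9 were below 0 and 1 was above, with a median of -0.08 beside 0.01 over all genes tested. The upCIN85 libraries lay wholly below Mock for 1 member, again SELENOS, beside 11% of all genes.

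SELENOS (ENSG00000131871, minus strand of chromosome 15 from 101270817 to 101277500 on GRCh38) measured 143, 157 and 160 CPM in Mock and 101, 123 and 118 CPM in upCIN85. Every upCIN85 library was below every Mock library. The log2 fold change was -0.42 (SE 0.10, 95% confidence interval -0.64 to -0.21), or 0.745 of the Mock level, with an edgeR adjusted P = 0.0522 and a DESeq2 adjusted P = 0.0119. It was below 0 in all 12 alternatives and called in 5 of them. Leaving out upCIN85 replicate 2 brought the edgeR adjusted P to 0.0377, and leaving out Mock replicate 2 brought it to 0.184. In this order the fits called 2.07% and 0.27% of all genes, beside 1.23% in the main fit. In siCIN85 the log2 fold change of SELENOS was also below 0 and was not called. The difference between the effects was -0.23 (SE 0.15, edgeR adjusted P = 0.512).

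DERL1 measured 74.7, 68.6 and 71.7 CPM in Mock and 73.3, 62.3 and 67.7 CPM in upCIN85. The groups overlapped, with a log2 fold change of -0.08 (SE 0.14, 95% confidence interval -0.37 to 0.21, edgeR adjusted P = 0.837). DERL2 measured 115, 128 and 119 CPM in Mock and 123, 120 and 108 CPM in upCIN85, with a log2 fold change of -0.05 (SE 0.10, edgeR adjusted P = 0.874). Neither derlin was separated from its control by more than the spread between libraries. HERPUD1 measured 70.9, 97.8 and 97.7 CPM in Mock and 83.9, 87.7 and 161 CPM in upCIN85. Its log2 fold change of 0.32 (SE 0.20, edgeR adjusted P = 0.488) was the only one above 0, and without upCIN85 replicate 3 it was -0.05 (edgeR adjusted P = 0.930). DNAJB9 measured 12.6, 18.3 and 20.9 CPM in Mock and 10.1, 9.97 and 15.8 CPM in upCIN85, which overlapped, with a log2 fold change of -0.53 (SE 0.26, edgeR adjusted P = 0.370). The remaining 5 members, SEL1L, SYVN1, HSPA5, HSP90B1 and XBP1, had log2 fold changes from -0.17 to -0.08, and the libraries of the groups overlapped for each.

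**Figure D3:**
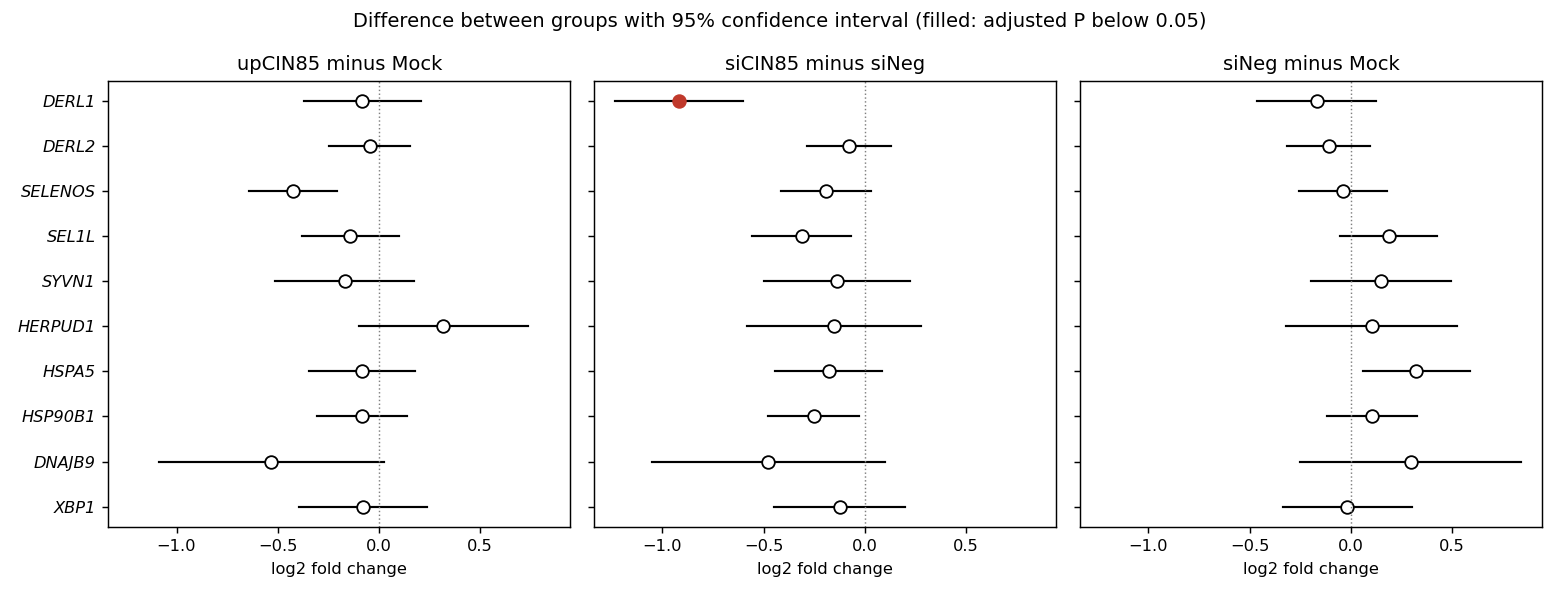
Log2 fold change (x axis) of each of the 10 genes with its 95% confidence interval in 3 comparisons, from edgeR's fit of all 12 libraries; a filled point has an adjusted P below 0.05. DERL1 in siCIN85 minus siNeg, at -0.92, is the 1 filled point, and the interval of SELENOS in upCIN85 minus Mock runs from -0.64 to -0.21.

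The difference between the 2 effects (upCIN85 minus Mock, less siCIN85 minus siNeg) was used to ask whether a gene responded differently to plasmid and siRNA. With edgeR 0 of 10 members were called (0.973% of all genes), 1 had an unadjusted P below 0.05 (14.5% of all genes) and DESeq2 called 1 (2% of its genes). In all of these the gene was DERL1, whose difference was 0.84 (SE 0.20, 95% confidence interval 0.41 to 1.26, edgeR adjusted P = 0.0612; DESeq2 adjusted P = 0.0138). With the replicate block in the siRNA experiment 1 member was called (2.93% of all genes), and it was DERL1 (0.84, edgeR adjusted P = 0.0320). The call thus depended on the fit, and was made in 7 of 18 alternatives. For DERL2 the difference was 0.03 (SE 0.14, 95% confidence interval -0.26 to 0.32, edgeR adjusted P = 0.948).

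The controls siNeg and Mock were compared to show how far the control groups of the separate experiments differed. Vector selection, siRNA transfection, sequencing depth and any batch cannot be told apart here. Total counts per library were 4011368 to 4174860 in siNeg and 5334731 to 5774968 in Mock. With edgeR 0 of 10 members were called (0.526% of all genes), 1 had an unadjusted P below 0.05 (12.4% of all genes) and DESeq2 called 0 (1.66% of its genes). The 1 gene was HSPA5, which measured 1249, 1514 and 1091 CPM in Mock and 1417, 1817 and 1584 CPM in siNeg, with a log2 fold change of 0.32 (SE 0.13, edgeR adjusted P = 0.288). Its libraries overlapped. Of the 10 log2 fold changes 6 were above 0 and 4 below, with a median of 0.10. For DERL1 the log2 fold change was -0.17 (SE 0.14, edgeR adjusted P = 0.661) and for DERL2 -0.11 (SE 0.10, edgeR adjusted P = 0.677). Mock and siNeg each serve as control in another comparison above, so the comparisons are not independent.

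Other genes of the pathway were taken from 5 lists with 117 genes in all, of which 114 were tested. TXNDC5, ASNS and NUPR1 were not tested, with at most 1, 8 and 6 counts in any library. In siCIN85 minus siNeg edgeR called 1 of the 114, or 0.877%, beside 1.04% of all genes. DESeq2 called 3 (2.68%, beside 2.71%) and the replicate block in the siRNA experiment gave 3 (2.63%, beside 3.42%). These shares rest on few list genes and lie near those of all genes. With no filter on low counts the share was 3.42% of list genes, beside 2.45% of all genes. The gene called by edgeR was PPP1R15A, a subunit of the phosphatase that removes the phosphate from eIF2α. It measured 64.5, 56.9 and 77.6 CPM in siNeg and 145, 93.7 and 118 CPM in siCIN85. The groups did not overlap and it rose (log2 fold change 0.85, SE 0.20, edgeR adjusted P = 0.0462). The call was made in 8 of 14 alternatives. It was lost when siNeg replicate 1 or 2 or siCIN85 replicate 1 or 3 was left out (edgeR adjusted P = 0.140, 0.209, 0.239 and 0.124). It was also lost without replicate 1 of both groups (0.65, edgeR adjusted P = 0.486) and in a fit of the siRNA libraries alone (edgeR adjusted P = 0.0635). In this order the fits called 0.13%, 0.0992%, 0.0691%, 0.107%, 0.0462% and 0.424% of all genes, beside 1.04% in the main fit.

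In that comparison, the list of the PERK-ATF4 arm, the UPR branch that acts through translation, had 12 of 13 tested genes higher and a median log2 fold change of 0.25, or 0.16 without siNeg replicate 3. At an unadjusted edgeR P below 0.05 there were 4 higher and 0 lower (30.8% and 0%, beside 7.55% and 8.15% of all genes). DDIT3, the factor CHOP, had a log2 fold change of 0.81 (edgeR adjusted P = 0.0910, or 0.0477 with the replicate block), and DDIT4, an mTORC1 inhibitor, was lowest at -0.76 (edgeR adjusted P = 0.393). The other 4 lists had medians below 0 and 0 genes called by edgeR, and DESeq2 called 1 of them, SPCS3. Over all 5 lists 5 genes were higher and 10 lower at an unadjusted P below 0.05, or 4.39% and 8.77%, beside 7.55% and 8.15% of all genes. The 34 other ERAD factors had 23 lower and a median of -0.03, from JKAMP at -0.41 to SGTA at 0.34. Of 25 ER chaperones and folding enzymes 18 were lower, with a median of -0.06, from the lectin chaperone CANX at -0.27 to SDF2L1 at 0.25. Of 32 genes of ER translocation and glycosylation 21 were lower, with a median of -0.05. The lowest of them was SPCS3, a signal peptidase subunit, at -0.52 (edgeR adjusted P = 0.0755, or 0.0328 with the replicate block), and the highest was the KDEL receptor KDELR3 at 0.24. The 10 UPR sensors and their processing enzymes had a median of -0.17, from ATF6B at -0.58 to ERN1, which encodes IRE1, at 0.47.

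In upCIN85 minus Mock edgeR called 1 of the 114 list genes (0.877%, beside 1.23% of all genes) and DESeq2 called 6 (5.26%, beside 2.5%). The gene called by edgeR was CREB3L1, an ER membrane transcription factor related to ATF6 that acts on collagen genes in osteoblasts. It measured 56.8, 50.8 and 46.6 CPM in Mock and 73.4, 81.7 and 105 CPM in upCIN85, without overlap. It rose, with a log2 fold change of 0.76 (SE 0.18, edgeR adjusted P = 0.0438), and was called in 7 of 12 alternatives. The call was lost without any 1 of the libraries except upCIN85 replicate 2, with an edgeR adjusted P up to 0.237 without upCIN85 replicate 3. The fits that lost it called 0.199% to 0.709% of all genes, beside 1.23% in the main fit. In siCIN85 minus siNeg CREB3L1 was not called in any of 14 alternatives.

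The lists were described one by one in upCIN85 minus Mock. In the PERK-ATF4 arm 11 of 13 genes were higher, with a median log2 fold change of 0.33 and 0 called by edgeR (6 higher and 1 lower at an unadjusted P below 0.05, or 46.2% and 7.69%, beside 6.64% and 7.85% of all genes, and 2 called by DESeq2). These levels were uneven among the upCIN85 libraries: replicates 2 and 3 were each above the highest Mock library for 10 of the 13 genes, and replicate 1 for 4, with 4 others below the lowest Mock library. SESN2, a stress-induced sestrin, measured 26.4, 65.7 and 65.4 CPM in upCIN85 and 22.6 to 28.2 CPM in Mock. ATF4, the transcription factor of this arm, measured 405, 609 and 620 CPM in upCIN85 and 348 to 411 CPM in Mock. In both genes replicate 1 was within the Mock range and the other 2 libraries were above it. Without upCIN85 replicate 1 the list's median was 0.46. CHAC1, a glutathione-degrading enzyme induced by ATF4, was highest at 1.83 (edgeR adjusted P = 0.0820) and measured 8.04, 43.0 and 80.9 CPM in upCIN85 against 6.58, 15.4 and 14.9 CPM in Mock. Replicate 1 of upCIN85 was within the Mock range for this gene too. STC2 was lowest in that list at -0.42 (edgeR adjusted P = 0.268). The ER chaperones and folding enzymes had 17 of 25 lower and a median of -0.18, with 0 called by edgeR (8 lower and 0 higher at an unadjusted P below 0.05, or 32% and 0%, and 1 called by DESeq2). Without Mock replicate 2 the median was -0.08. They ran from the oxidase ERO1B at -0.58 to CNPY3 at 0.33. Translocation and glycosylation had 22 of 32 lower and a median of -0.08, from OSTC, an oligosaccharyltransferase subunit, at -0.54 (edgeR adjusted P = 0.0600) to SSR1 at 0.28. The other ERAD factors had 19 of 34 higher and a median of 0.01, from FAF2 at -0.37 (edgeR adjusted P = 0.0739) to TMUB1 at 0.29. The UPR sensors had a median of 0.02, with ERN1 lowest at -0.31.

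In siNeg minus Mock edgeR called 0 of the 114 list genes, beside 0.526% of all genes. At an unadjusted P below 0.05 there were 8 higher and 9 lower (7.02% and 7.89%, beside 6.77% and 5.67% of all genes). DESeq2 called 1, CEBPB (0.893% of list genes, beside 1.66% of all genes). CEBPB, a transcription factor gene, was highest in the PERK-ATF4 arm at 0.77 (edgeR adjusted P = 0.0866) and PSAT1, a serine synthesis enzyme, lowest at -0.52 (edgeR adjusted P = 0.162). That list had 9 of 13 genes higher and a median of 0.33, and it shares its Mock libraries with upCIN85 minus Mock. The medians of the other 4 lists lay from -0.11 for the ERAD factors to 0.05 for the ER chaperones. Their extremes were RNF185 at -0.68 and DERL3 at 0.50, PPIB at -0.34 and DNAJC1 at 0.46, SEC61G at -0.34 and SEC11C at 0.46, and CREB3L1 at -0.33 and ATF6B at 0.65. For the difference between the effects edgeR called 0 of the 114, beside 0.973% of all genes. At an unadjusted P below 0.05 there were 6 higher and 8 lower (5.26% and 7.02%, beside 6.94% and 7.56% of all genes). DESeq2 called 2 (1.75%, beside 2% of all genes) and the replicate block in the siRNA experiment gave 3 (2.63%, beside 2.93%).

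**Figure D4:**
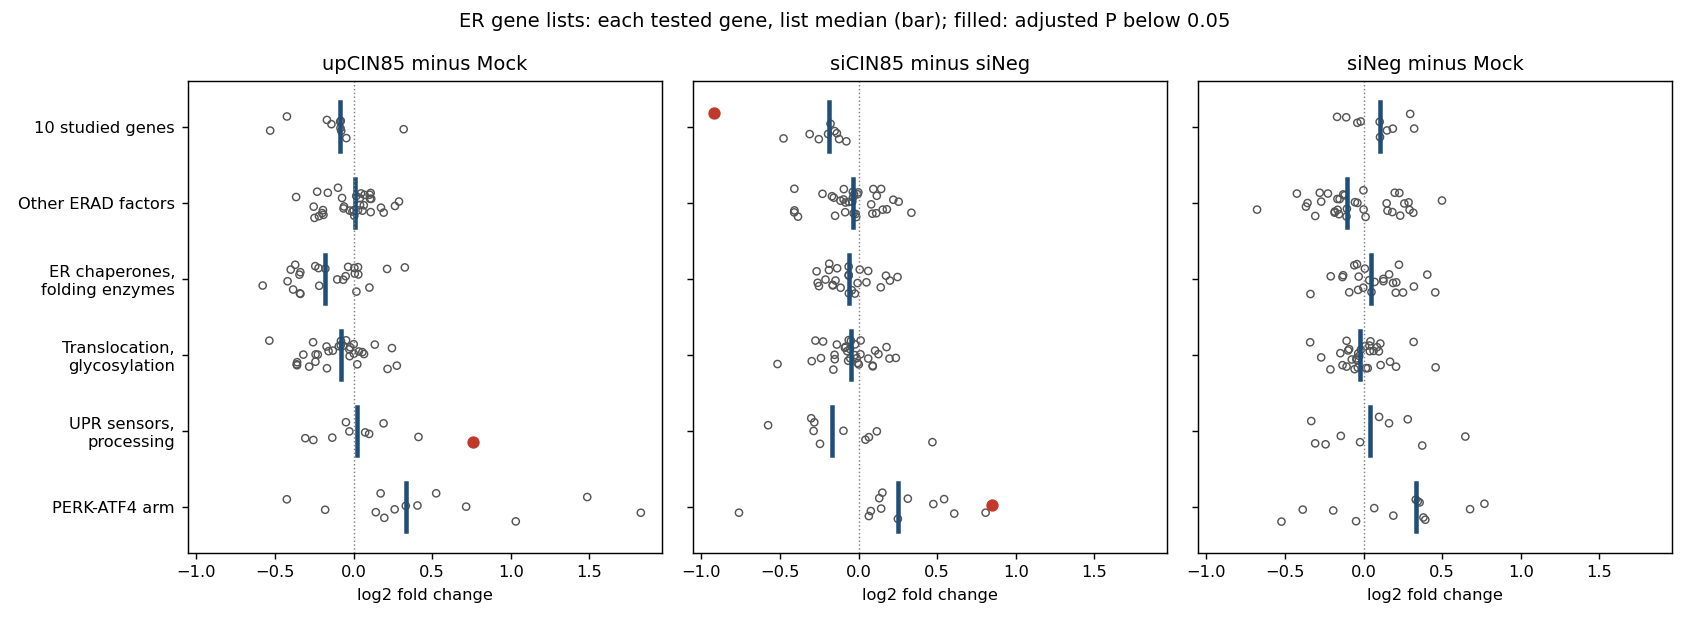
Log2 fold change (x axis) of every tested gene of the 10 studied genes and of 5 lists of ER genes in 3 comparisons; open points are genes, filled points have an adjusted P below 0.05 and thick bars are list medians, with vertical position within a list jittered. The PERK-ATF4 arm has medians of 0.33, 0.25 and 0.33, and the filled points are CREB3L1, DERL1 and PPP1R15A.

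The genes whose levels followed those of DERL1 most closely were found by the root mean square difference of centred log2 CPM over the 12 libraries. They were LRRC1 (0.13), ACADSB (0.13) and USP13 (0.15), beside a root mean square of 0.47 for DERL1 itself around its own mean. Their log2 fold changes in siCIN85 minus siNeg were -0.85, -0.69 and -0.65. Such falls follow from choosing genes by likeness to DERL1 over these same libraries. The genes nearest to DERL2 were MDH2 (0.05), FH (0.07) and PSMD12 (0.07), beside 0.09 for DERL2 itself, so that DERL2 and its nearest genes varied little in any library. Their log2 fold changes in siCIN85 minus siNeg lay from -0.09 to -0.02, which likewise follows from the choice.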

How the data were processed

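RNA was read as 75-base single-end reads from libraries of a Lexogen QuantSeq 3′ FWD kit with UMIs. The authors summarized reads by gene with featureCounts, and the deposited values are counts that were not normalized. Per the labels, the submitters' processing notes also name FastQC, cutadapt 4.3, STAR 2.7.3a, Picard 2.25.6, MultiQC 1.10.1, Subread 2.0 and GRCh38. The annotation, strand setting and collapsing of UMIs are not given in the sources used here, so counts may hold PCR copies.

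Groups follow the labels. Symbols and positions came from GENCODE release 29, in which 95 identifiers had no match, and promoters from RefSeq. In R 4.3.3, edgeR 4.0.16 was used with filterByExpr (minimum count 10, minimum total 15), TMM factors and a quasi-likelihood fit of a mean per group on all 12 libraries (8 residual degrees of freedom). P-values were two-sided, with Benjamini-Hochberg adjustment over all genes tested and a threshold of 0.05. SE is the absolute log2 fold change divided by the square root of F. DERL1 to DERL2 ratios were tested by exact permutation. Deviations from the group mean correlated between siNeg and siCIN85 libraries of one label number (r of 0.353, 0.269 and 0.446 across genes). The labels do not state a pairing, so this is a hint from the data and not the design. The main fit held no block, and replicate blocks were used only in alternatives. No library differed from another of its group by less than sampling noise (chi-square per gene 4.93 to 10.2). The edgeR fit without blocks was run on simulated counts of independent libraries before use, for siCIN85 minus siNeg only. DESeq2, the replicate blocks and the permutation test were not run on simulated counts.

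The 10 genes, the 5 lists and the tests were chosen with earlier results of these data known. By rule the text names the 10 genes, SH3KBP1, cell type markers, list genes past the threshold, the highest and lowest gene of each list, and the 3 genes nearest in profile to DERL1 and to DERL2. DDIT3, SESN2, ATF4 and the genes that overlap members were named after their values were seen, and the interferon-stimulated genes were added then too. Alternatives were DESeq2 1.42.0, RLE factors, no filter, only the libraries compared, replicate blocks and each library left out. Leaving out replicate 1 of both siRNA groups was added after seeing the data.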

Additional observations from a re-analysis of the deposited data

How the results depend on the processing

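Of 550 log2 fold changes of the 10 genes recomputed under the alternatives, 27 changed sign, 3 lost a call (DERL1 in siCIN85 minus siNeg) and 13 gained one. For siCIN85 minus siNeg, the members called (1) became 0 without replicate 1 of both groups and 0 to 1 with single libraries left out. The list genes called (1) became 4 with no filter, 0 with only the libraries compared, 3 with DESeq2, 0 without replicate 1 of both groups and 0 to 3 with single libraries left out. No filter gave 3.42% of list genes, beside 2.45% of all genes. Single libraries left out gave 0% to 2.63%, beside 0.0691% to 2.76%. Only the libraries compared gave 0% of list genes, beside 0.424% of all genes. Leaving out replicate 1 of both groups gave 0%, beside 0.0462%, so few genes of any kind were called there. For upCIN85 minus Mock, the members called (0) became 1 with no filter, 1 with DESeq2 and 0 to 1 with single libraries left out, and the list genes (1) became 10, 6 and 0 to 6. These are 8.55%, 5.26% and 0% to 5.26% of list genes, beside 2.53%, 2.5% and 0.199% to 2.07% of all genes. For siNeg minus Mock the list genes (0) became 2 with no filter, 1 with only the libraries compared and 1 with DESeq2. These are 1.71%, 0.885% and 0.893% of list genes, beside 1.5%, 0.761% and 1.66% of all genes. For the difference between the effects, the members called (0) became 1 with no filter, 1 with DESeq2 and 0 to 1 with single libraries left out, and the list genes (0) became 6, 2 and 0 to 3. These are 5.13%, 1.75% and 0% to 2.63% of list genes, beside 2.2%, 2% and 0.263% to 2.71% of all genes. With no filter the share of all genes called was 2.53% in upCIN85 minus Mock, 2.45% in siCIN85 minus siNeg, 1.5% in siNeg minus Mock and 2.2% for the difference. The cause was not tested.

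With a replicate block in both experiments the members called were 2 in siCIN85 minus siNeg, 1 in upCIN85 minus Mock and 1 for the difference, and the list genes 8, 16 and 7. Calls rose over all genes too: this fit called 7.72%, 8.25% and 7.32% of all genes in these comparisons, and 7.02%, 14% and 6.14% of the list genes. With the replicate block in the siRNA experiment only, the members called were 1 for the difference. The list genes were 3 in siCIN85 minus siNeg and 3 for the difference (2.63% in each, beside 3.42% and 2.93% of all genes). With a replicate block shared by all 4 groups, the members called were 1 in upCIN85 minus Mock and 1 for the difference, and the list genes 9 and 2 (7.89% and 1.75%, beside 3.05% and 2.1% of all genes). Mock and upCIN85 libraries each correlated best with the library of their own number (r of 0.326, 0.227 and 0.0989), a hint from the data and not the design, and were not taken as paired.

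Signs changed with single libraries left out, and none of these values was called. For upCIN85 minus Mock the ranges were -0.11 to 0.040 for the log2 ratio of DERL1 to DERL2, -0.090 to 0.0062 for DERL2, -0.053 to 0.48 for HERPUD1, -0.19 to 0.046 for HSPA5 and -0.24 to 0.075 for XBP1. For siNeg minus Mock they were -0.17 to 0.030 for the log2 ratio, -0.035 to 0.18 for HERPUD1, -0.088 to 0.014 for SELENOS and -0.13 to 0.055 for XBP1. For siCIN85 minus siNeg the range was -0.26 to 0.018 for SYVN1. For the difference they were -0.013 to 0.084 for DERL2, -0.31 to 0.37 for DNAJB9, -0.0096 to 0.23 for HSPA5, -0.19 to 0.10 for SYVN1 and -0.12 to 0.20 for XBP1. Depth limits DNAJB9 (42 to 119 counts per library) and SYVN1 (64 to 128 counts) most among the 10 genes.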
